A study of Mus musculus with 6 samples.

Results

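Costimulatory and coinhibitory molecules are the surface proteins through which an antigen-presenting cell adjusts the response of a T cell that has recognized its antigen. The 8 genes described here were chosen by name, and all 8 were among the 24061 gene symbols counted. They were *Cd80*, *Cd86*, *Icosl*, *Cd274* and *Pdcd1lg2* of the B7 family, the TNF-family ligands *Tnfsf9* and *Tnfsf4*, and *Cd40*, which is a receptor of the TNF receptor family rather than a ligand. They were measured by RNA-seq in CD45+CD11b+F4/80+ cells sorted from the inguinal mammary glands of female FVB/N mice, after the lymph nodes were taken out, as 3 Lyve-1+ and 3 Lyve-1- libraries. Each library was a pool of 4 mice that had received no treatment and carried no transgene. Replicate 1 of each subset was from mice at 6 weeks of age, and replicates 2 and 3 were from mice at 10 weeks. The labels do not say whether Lyve-1+ and Lyve-1- libraries with the same number came from the same mice.

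T cells need a second signal beside that of the antigen receptor. CD80 and CD86 give this signal through CD28 and restrain the T cell through CTLA-4, which binds them more tightly, and ICOS ligand acts on ICOS, a receptor that appears on activated T cells. PD-L1 and PD-L2 dampen T cells through PD-1. CD40 is engaged by CD40 ligand on helper T cells and signals to NF-kB, and the ligands 4-1BBL and OX40L prolong the response of activated T cells. Macrophages carry several of these proteins at low or moderate levels, whereas mature dendritic cells carry them at high levels.

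The libraries held 6478007 to 21406839 counts, so that 3 counts, the limit that a count of 0 allows, corresponded to 0.144 to 0.437 CPM (TMM-scaled counts relative to the library size). The 10 macrophage markers, among them *Csf1r* and *Cd68*, were detected in every library and summed to 9733 to 13723 CPM. *Lyve1* averaged 5.18 CPM (SD 3.27, n = 3) in the Lyve-1- and 1245 CPM (SD 963) in the Lyve-1+ libraries, in the direction of the labels (log2 fold change 7.93, edgeR quasi-likelihood test, adjusted p = 0.0254). Pools of the same subset varied widely (biological coefficient of variation 0.931 over all genes tested). It was 0.488 over the genes with at least 10 counts in every library. Of 1094 olfactory receptor genes, whose products serve sensory neurons of the nose, 642 had a count in Lyve-1- replicate 3, 361 had a count in Lyve-1+ replicate 1, and 4 to 132 did in the other libraries.

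To determine whether the subsets differed in these genes, Lyve-1+ was compared with Lyve-1- libraries across all genes, and each member was read from that fit. *Icosl* was the member with the strongest evidence of a difference and was 4.55-fold lower in Lyve-1+ cells. *Cd274*, *Cd40* and *Tnfsf9* were 2.09-fold to 2.64-fold lower in the fit but did not pass the adjusted threshold. *Cd80* and *Cd86* showed no difference beyond the spread between pools, and *Pdcd1lg2* and *Tnfsf4* were near the detection limit in most libraries. With edgeR's quasi-likelihood test, none of the 8 genes was called at an adjusted p under 0.01 and a change of more than 1 and less than 10 log2 units, limits that called 0.112% of the 13348 genes tested. The study's limits on the fold change do not name a scale and were read here as log2 units. With DESeq2, the tool named in the study's methods, *Icosl* was the 1 gene of the 8 called, among 159 called of the 13348 genes tested. *Tnfsf4* did not pass the filter on low counts and was not tested. All 7 genes tested had a log2 fold change below 0, as did 50.6% of all genes, and their median was -1.13 against -0.01 for all genes. *Pdcd1lg2*, *Icosl*, *Cd40*, *Cd274* and *Tnfsf9* were lower at an unadjusted p under 0.05, against 3.5% of all genes tested, and only *Icosl* was lower at an adjusted p under 0.05, against 0.18% of all genes in that direction and 0.629% in either. Fewer cells of a type and less RNA per cell cannot be told apart in these sorted pools.

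**Figure D1:**
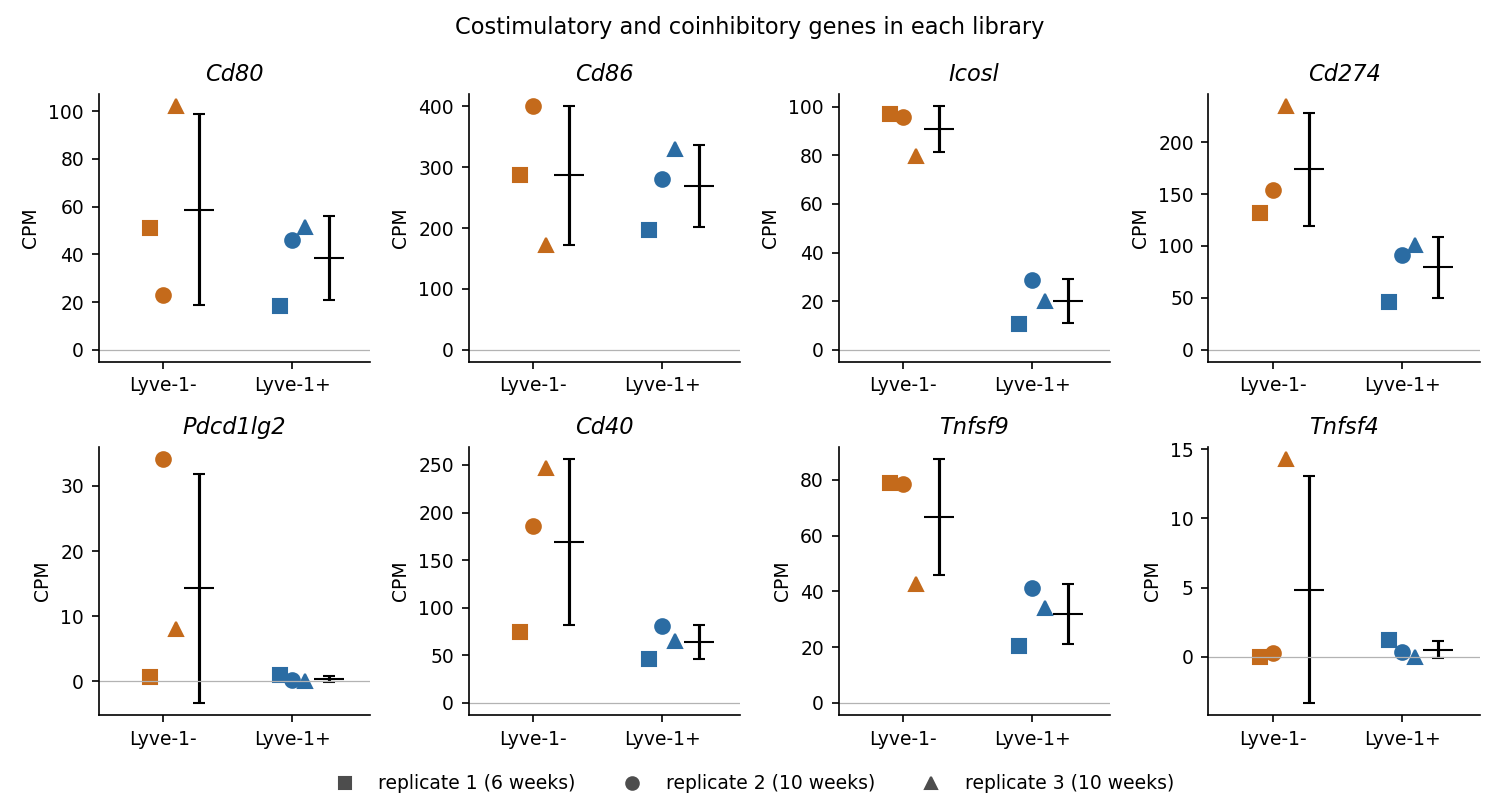
Level of each of the 8 genes in CPM on linear axes in the 3 Lyve-1- (orange) and 3 Lyve-1+ (blue) libraries; squares are replicate 1 (6 weeks), circles and triangles replicates 2 and 3 (10 weeks), and the black bars are the mean and SD of each subset. All Lyve-1+ points lie below all Lyve-1- points for *Icosl*, *Cd274* and *Tnfsf9*, and the subsets overlap for the other 5 genes.

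When levels were divided by the exonic length of each gene, *Cd86* was the highest of the 8 genes in both subsets, at 78.4 CPM per kb in the Lyve-1- and 73.6 CPM per kb in the Lyve-1+ libraries. In the Lyve-1- libraries it was followed by *Tnfsf9* at 51.6, *Cd40* at 49.7 and *Cd274* at 48.0 CPM per kb, which lay within their spread of each other. *Icosl* at 19.7 and *Cd80* at 15.9 CPM per kb came next, and *Pdcd1lg2* and *Tnfsf4* were the lowest at 7.28 and 2.63 CPM per kb. In the Lyve-1+ libraries the same measure was 24.7 for *Tnfsf9*, 21.9 for *Cd274*, 18.8 for *Cd40*, 10.4 for *Cd80* and 4.31 for *Icosl*. *Icosl* stood above *Cd80* in the mean of the Lyve-1- libraries and below it in that of the Lyve-1+ libraries. Within single libraries *Icosl* was below *Cd80* in all 3 Lyve-1+ libraries and in Lyve-1- replicate 3, where the ratio was 0.626. *Pdcd1lg2* and *Tnfsf4* were at 0.204 and 0.29 CPM per kb in the Lyve-1+ libraries.

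*Cd86* accordingly took a different share of the summed, length-scaled level of the 8 genes in the 2 subsets. It made up 33.7, 35.1 and 17.2% of that level in Lyve-1- replicates 1, 2 and 3 and 51.8, 43.4 and 49.6% in the Lyve-1+ replicates. The shares did not overlap between the subsets. *Icosl* made up 9.02, 6.64 and 6.31% in the Lyve-1- and 2.23, 3.54 and 2.4% in the Lyve-1+ libraries, again without overlap. The shares of *Cd40*, *Cd274*, *Cd80* and *Tnfsf9* overlapped. How often shares of genes in general would separate the subsets in this way was not counted. These are ratios between genes of 1 library, so they show unequal differences among the 8 genes and not which of them changed.

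**Figure D2:**
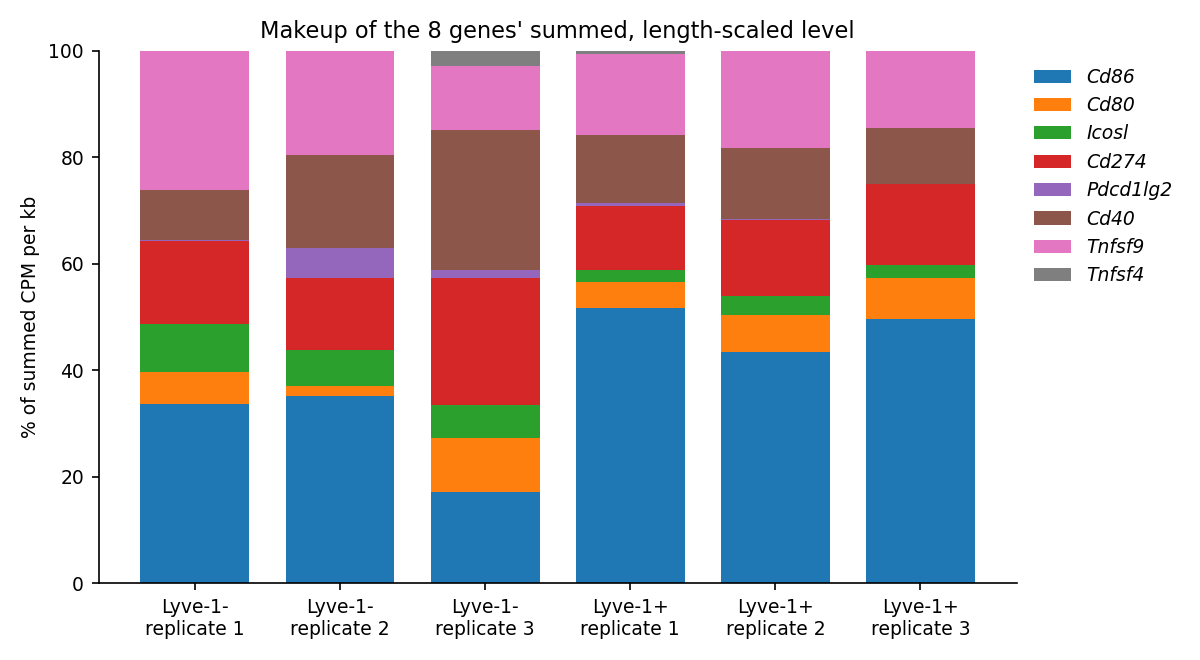
Share of each gene, in percent, in the summed CPM per kb of the 8 genes in each of the 6 libraries. *Cd86* (blue) made up 43.4 to 51.8% in the Lyve-1+ and 17.2 to 35.1% in the Lyve-1- libraries, and the *Icosl* band (green) was narrower in all 3 Lyve-1+ libraries.

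*Cd80* and *Cd86*, the ligands of CD28 and CTLA-4, lie on chromosome 16 of mm10 at 38455561 to 38496335 and 36603869 to 36666081. *Cd80* was at 50.9, 23.1 and 102.3 CPM in Lyve-1- replicates 1, 2 and 3 and at 18.5, 45.95 and 51.4 CPM in the Lyve-1+ replicates. The subsets overlapped, and the highest and the second lowest values were both from Lyve-1- libraries. The log2 fold change was -0.60 ± 0.54 (SE), with an interval from -1.77 to 0.56 (adjusted p = 1.00). It turned to 0.06 without Lyve-1- replicate 3, the library with the highest *Cd80* and with counts on the most olfactory receptor genes. At the mean density of counts on those genes, an exonic length like that of *Cd80* would hold 9.75 counts in that library, against the 702 found. That mean is over 1094 genes, of which 642 had a count, so it does not bound the stray counts on a single gene.

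*Cd86* was at 287.9, 400.8 and 172.2 CPM in the Lyve-1- and 197.6, 280.5 and 330.5 CPM in the Lyve-1+ libraries. The lowest and the highest value were both from Lyve-1- libraries at 10 weeks of age. The means were 286.9 ± 114.3 and 269.5 ± 67.1 CPM (SD, n = 3), with a log2 fold change of -0.09 ± 0.32. The interval from -0.78 to 0.60 bounded a difference in either direction to less than a log2 unit, and its sign changed with the libraries left out. Thus the most abundant of these transcripts was present in both subsets with no difference detected. *Cd80* and *Cd86* did not run in parallel, since Lyve-1- replicate 2 had the highest *Cd86* and the lowest *Cd80* of its subset, and Lyve-1- replicate 3 had the reverse.

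*Icosl* encodes the ligand of ICOS and lies at chr10:78069302-78083913 (mm10, plus strand). It was at 97.1, 95.7 and 79.9 CPM in the Lyve-1- libraries, or 1156, 1077 and 548 counts. In the Lyve-1+ libraries it was at 10.7, 28.9 and 20.2 CPM, or 141, 603 and 160 counts. All Lyve-1- values lay between 79.9 and 97.1 CPM, and the highest Lyve-1+ value was well below that range. The means were 90.9 ± 9.57 and 19.9 ± 9.08 CPM (SD, n = 3), and the log2 fold change was -2.19 ± 0.44 with an interval from -3.12 to -1.25 (edgeR quasi-likelihood test, adjusted p = 0.0376). It missed the threshold of 0.01 in this test and was called with DESeq2 (log2 fold change -2.22, adjusted p = 0.000532). Leaving out Lyve-1- replicate 3 gave an adjusted p of 0.125, leaving out Lyve-1+ replicate 1 gave 0.13 and the 10-week libraries alone gave 0.31, while the log2 fold change stayed between -2.58 and -1.85 in the 15 alternatives.

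Bases before *Icosl* from the RefSeq promoter table, chr10:78069118-78069301 (GRCm38.p6, plus strand), are shown because this gene differed the most clearly among the 8. They were cut at the start of the GENCODE gene, so the bases from there to the RefSeq start site at 78069368 are not included. The 4 of the 8 genes in that table were searched on both strands for simplified motifs, and capitals mark the matches. The motifs were NF-kB (GGG and CC with any 5 bases between them), GAS (TTC and GAA with 3 bases between), STAT6 (TTC and GAA with 4 between), IRF (GAAA and GAAA with 2 between), AP-1 (TGANTCA) and PU.1 (GAGGAA).
Icosl: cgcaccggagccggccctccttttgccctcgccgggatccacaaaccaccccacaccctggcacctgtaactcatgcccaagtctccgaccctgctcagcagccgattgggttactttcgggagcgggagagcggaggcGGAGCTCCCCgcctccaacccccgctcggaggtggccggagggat
These 184 bases held 1 match, to the NF-kB motif on the opposite strand, which 34.1% of 32851 promoters also held in a window of that length. The window of *Cd80*, 250 bases that are not printed, held the NF-kB motif on each strand and the AP-1 motif. In windows of 250 bases these were found in 45.8% and 6.75% of promoters.

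*Cd274* encodes PD-L1 and *Pdcd1lg2* encodes PD-L2, both ligands of PD-1. The genes are neighbours on chromosome 19, with *Cd274* at 29367455 to 29388095 and *Pdcd1lg2* starting 22824 bp after its end, both on the plus strand. *Cd274* was at 131.8, 154.1 and 235.1 CPM in the Lyve-1- and 45.6, 91.6 and 100.7 CPM in the Lyve-1+ libraries. All Lyve-1+ values were lower than all Lyve-1- values, as they were for 6.5% of all genes tested, and among the 8 genes this was also so for *Icosl* and *Tnfsf9*. None of the 8 genes was higher in all Lyve-1+ libraries, as 7.82% of all genes were. The means were 173.7 ± 54.4 and 79.3 ± 29.5 CPM, a 2.19-fold lower level (log2 fold change -1.13 ± 0.36, interval -1.90 to -0.36). The difference did not pass the adjusted threshold in edgeR's quasi-likelihood test (adjusted p = 0.284), and was -0.59 in the 4 libraries with counts on the fewest olfactory receptor genes. A GENCODE antisense gene overlaps exons of *Cd274* and has no row of its own. Whether its reads were counted on *Cd274* is not known, since the strand setting is not given.

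*Pdcd1lg2* was far less abundant, with 8, 384 and 55 counts in Lyve-1- replicates 1, 2 and 3 and 12, 6 and 0 counts in the Lyve-1+ replicates. This corresponded to 0.672, 34.1 and 8.02 CPM against 0.914, 0.288 and 0 CPM. The 2 Lyve-1- libraries at 10 weeks held nearly all of the counts, whereas Lyve-1- replicate 1 was within the range of the Lyve-1+ libraries. The fitted log2 fold change of -5.09 had an interval from -9.11 to -1.08 (adjusted p = 0.415) and moved to -3.39 without Lyve-1- replicate 2, and DESeq2 gave no adjusted p. At the density of counts on olfactory receptor genes, 5.16 counts would fall on *Pdcd1lg2* in Lyve-1- replicate 3 and 0.183 would do so in Lyve-1- replicate 2, fewer than were found in either.

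The sequences before both genes are shown because they are neighbours with different levels. They are chr19:29367188-29367437 for *Cd274* and chr19:29410669-29410918 for *Pdcd1lg2* (GRCm38.p6, plus strand).
Cd274: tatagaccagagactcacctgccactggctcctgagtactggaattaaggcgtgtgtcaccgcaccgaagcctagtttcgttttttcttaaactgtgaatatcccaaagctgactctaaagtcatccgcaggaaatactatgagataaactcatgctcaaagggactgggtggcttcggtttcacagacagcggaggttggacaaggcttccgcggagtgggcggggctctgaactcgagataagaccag
Pdcd1lg2: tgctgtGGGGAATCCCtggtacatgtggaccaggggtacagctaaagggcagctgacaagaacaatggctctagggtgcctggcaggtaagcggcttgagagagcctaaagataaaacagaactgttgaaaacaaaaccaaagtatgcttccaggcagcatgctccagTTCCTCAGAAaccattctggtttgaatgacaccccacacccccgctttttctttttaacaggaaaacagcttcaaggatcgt
The window of *Cd274* held none of the 6 motifs. That of *Pdcd1lg2* held the NF-kB motif, which matched on both strands and was found in 45.8% of promoters, and further on the STAT6 motif, found in 5.85% of promoters. The first letters of the STAT6 match are also a match to the PU.1 motif on the opposite strand, found in 23.3%. A match of letters does not show binding, and no match says only that these letters are not in the window.

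*Cd40* (chromosome 2, 165055627 to 165072948) encodes the receptor through which helper T cells activate antigen-presenting cells. It was at 74.6, 186.3 and 246.4 CPM in the Lyve-1- and 45.9, 81.1 and 65.3 CPM in the Lyve-1+ libraries. The 2 Lyve-1- libraries at 10 weeks stood above all others, but Lyve-1- replicate 1 lay below Lyve-1+ replicate 2, so the subsets overlapped. The means were 169.1 ± 87.2 and 64.1 ± 17.6 CPM, 2.64-fold lower in the Lyve-1+ libraries (log2 fold change -1.40 ± 0.41, interval -2.27 to -0.53, adjusted p = 0.208). The call depended on the processing, since *Cd40* passed with no filter on low counts (adjusted p = 0.00855) and without Lyve-1- replicate 1 (adjusted p = 0.00901), while the adjusted p reached 0.997 among the alternatives.

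*Tnfsf9* (chromosome 17, 57105325 to 57107757) encodes 4-1BBL, which acts on 4-1BB of activated T cells. It was at 78.9, 78.4 and 42.6 CPM in the Lyve-1- and 20.3, 41.2 and 34.0 CPM in the Lyve-1+ libraries. The subsets did not overlap, but Lyve-1- replicate 3 and Lyve-1+ replicate 2 were nearly equal. The difference was 2.09-fold (log2 fold change -1.06 ± 0.44, interval -2.00 to -0.13) and did not pass the adjusted threshold (adjusted p = 0.532). Exons of *Tnfsf9* overlap the non-coding gene *Gm11110* on the opposite strand. *Gm11110* had 64, 38 and 10 counts in the Lyve-1- and 0, 73 and 0 in the Lyve-1+ libraries, against 267 to 939 counts of *Tnfsf9*.

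*Tnfsf4* (chromosome 1, 161395409 to 161418410) encodes OX40L. It had 0, 3 and 98 counts in the Lyve-1- and 16, 8 and 0 counts in the Lyve-1+ libraries. In 3 of the 6 libraries it was at or under 3 counts, and a single library, Lyve-1- replicate 3, held most of the counts at 14.3 CPM. The mean density of counts on olfactory receptor genes in that library would put 4.85 counts on *Tnfsf4*, a mean that does not bound the stray counts on a single gene. Without a filter on low counts the log2 fold change was -3.13 with an interval from -9.09 to 2.83, which left the direction undetermined at this depth.

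**Figure D3:**
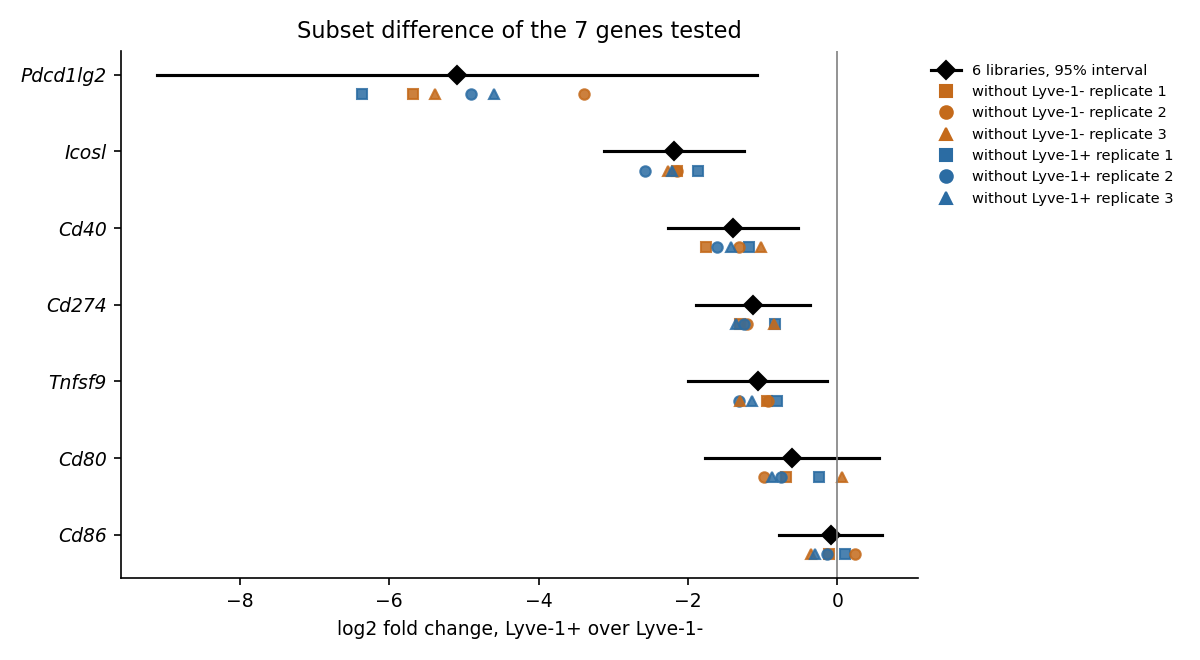
Log2 fold change of Lyve-1+ over Lyve-1- libraries for the 7 genes tested, with black diamonds for the 6 libraries, black lines for the 95% interval and smaller symbols for the fits without each library. The interval of *Icosl* runs from -3.12 to -1.25, those of *Cd80* and *Cd86* cross 0, and *Pdcd1lg2* has the widest interval, from -9.11 to -1.08.

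Dividing by the level of *Cd86* in the same library removed the scale of the library from the comparison. The ratio of *Icosl* to *Cd86* per kb was 0.267, 0.189 and 0.368 in the Lyve-1- and 0.0431, 0.0816 and 0.0483 in the Lyve-1+ libraries, without overlap. The ratios of *Cd274* and of *Tnfsf9* to *Cd86* did not overlap either, with all 3 Lyve-1+ libraries lower. The ratio of *Cd40* to *Cd86* did overlap, at 0.279, 0.5 and 1.54 against 0.25, 0.311 and 0.212. *Icosl* was also lower relative to *Cd274*, with 0.578, 0.487 and 0.266 in the Lyve-1- and 0.185, 0.247 and 0.157 in the Lyve-1+ libraries, where Lyve-1- replicate 3 was just above Lyve-1+ replicate 2. *Icosl*, *Cd274* and *Tnfsf9* did not overlap before the division either, and the share of all genes with such ratios was not counted. The ratios to *Cd86* also carry its own spread, with its lowest value, 172.2 CPM, in Lyve-1- replicate 3. All these ratios were computed as a description and were not tested.

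Mature dendritic cells carry several of these proteins, and their markers differed between the libraries as well. The 8 such markers other than *Cd83* summed to 385.7, 1501.5 and 2031.4 CPM in Lyve-1- replicates 1, 2 and 3 and to 45.5, 202.5 and 239.8 CPM in the Lyve-1+ replicates. All 8 tested of the 9 markers had a log2 fold change below 0, with a median of -2.84, and none was called. The markers *Lamp3* and *Il4i1* were at 0 in several libraries. The homing receptor *Ccr7*, chosen after its values were seen, was at 139.1, 457.6 and 504.5 CPM in the Lyve-1- and 14.8, 59.7 and 106.6 CPM in the Lyve-1+ libraries. *Cd40* and *Pdcd1lg2* were highest in the same 2 Lyve-1- libraries as these markers. *Cd274* had its 6 values in the order of the marker sums without *Cd83*, but not in that of the sums with *Cd83*. With *Cd83* the sums were 2543.5, 4005.9 and 3616.6 CPM in the Lyve-1- and 1147, 1753.1 and 1306.9 CPM in the Lyve-1+ replicates. *Icosl* was not higher in Lyve-1- replicates 2 and 3 than in Lyve-1- replicate 1.

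Lyve-1- replicate 1 and Lyve-1+ replicate 3, a pair chosen after their values were seen, had the nearest marker sums without *Cd83* between the subsets. These were 385.7 and 239.8 CPM, but with *Cd83* the sums were 2543.5 and 1306.9 CPM, so the pair was not matched in these markers. In this pair *Icosl* was at 97.1 and 20.2 CPM and *Tnfsf9* at 78.9 and 34.0 CPM, whereas *Cd40* was at 74.6 and 65.3 CPM and *Cd274* at 131.8 and 100.7 CPM. The libraries also differed in age, and the part of dendritic cells in the differences of the 8 genes was not tested.

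**Figure D4:**
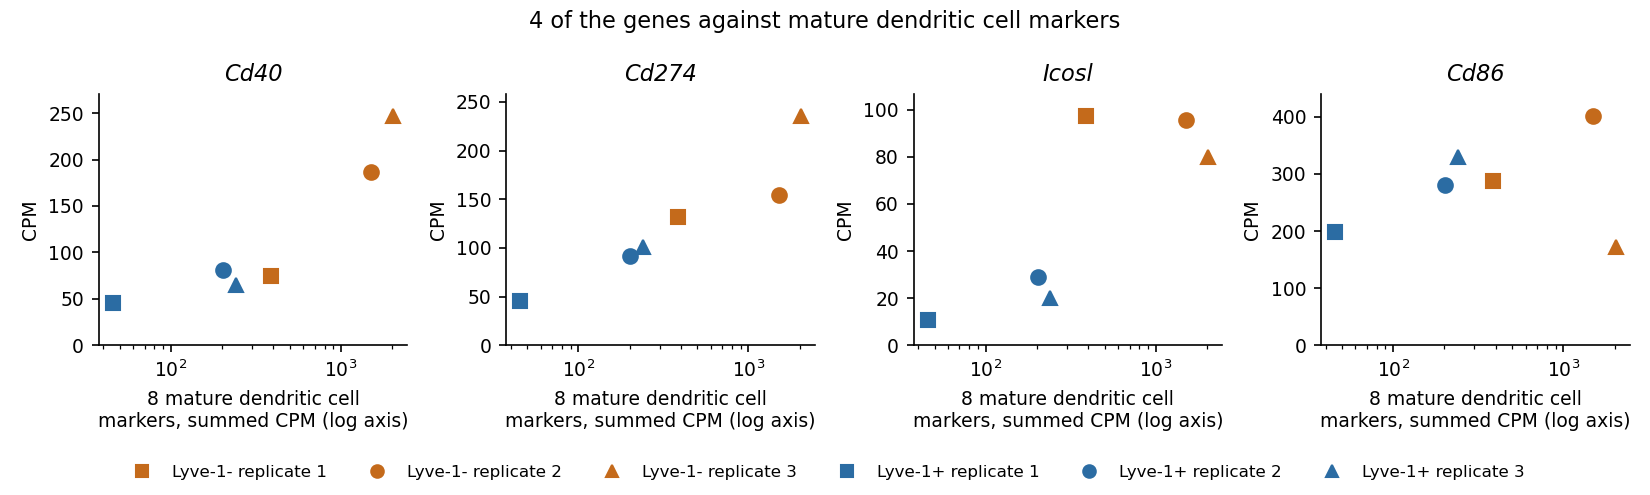
Level of *Cd40*, *Cd274*, *Icosl* and *Cd86* in CPM against the summed CPM of 8 mature dendritic cell markers without *Cd83* (log axis), with 1 point for each of the 6 libraries (orange Lyve-1-, blue Lyve-1+). *Cd40* is highest in the 2 libraries with marker sums of 1501.5 and 2031.4 CPM, while the 3 Lyve-1- points of *Icosl* lie between 79.9 and 97.1 CPM over the range of marker sums.

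Markers of other cell types also differed between the libraries, and their part in the results was not tested. The 9 conventional dendritic cell markers had a median log2 fold change of -1.07, with 8 of 9 below 0 and sums of 318.1 to 475.1 CPM in the Lyve-1- and 139.3 to 336.4 CPM in the Lyve-1+ libraries. T cell markers had a median of -1.15 and sums of 237.8 to 351.8 against 81.4 to 289.7 CPM, and mammary epithelial markers a median of -1.30 and sums of 55.2 to 421.9 against 49.9 to 105.1 CPM. The sort for CD45 is meant to remove epithelial, fibroblast and endothelial cells, and that for CD11b and F4/80 most T and B cells. B cell markers had a median of 0.78 and were highest in Lyve-1+ replicate 3, at 236.0 CPM against 11.7 to 65.2 CPM in the other libraries. In that library *Icosl* was at 20.2, *Cd40* at 65.3 and *Cd86* at 330.5 CPM, the last of these the highest *Cd86* value of the Lyve-1+ libraries. Neutrophil and fibroblast markers, with medians of 1.73 and 1.46, were also highest in Lyve-1+ replicate 3, and endothelial markers had a median of 0.23. None of the genes in these lists was called.

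Genes that act upstream or downstream of the 8 proteins were examined next. In a list of 17 CD40 and NF-kB signalling genes, 16 had a log2 fold change below 0, the median was -0.63 and none was called. *Map3k14*, the kinase NIK of the non-canonical NF-kB pathway, was lower in Lyve-1+ libraries at an adjusted p under 0.05, at 201.3, 145.6 and 145.9 against 45.5, 58.2 and 58.2 CPM (log2 fold change -1.61, adjusted p = 0.0323). So was *Bcl2a1b*, an anti-apoptotic target of NF-kB, with a log2 fold change of -2.31 (adjusted p = 0.012), although its reads may be shared with near-identical *Bcl2a1* copies. *Traf2*, an adaptor of TNF receptors, was at the other end of the list with 0.02.

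Of 11 genes of MHC class II presentation, which supplies the antigen signal beside these molecules, all 11 had a log2 fold change below 0 and the median was -1.17. *H2-Ab1*, a chain of the class II molecule, was alone in being lower at an adjusted p under 0.05 (log2 fold change -1.45, adjusted p = 0.0466), and *H2-Eb2* had the highest, at -0.61. The 9 genes between the interferon-gamma receptor and PD-L1 had a median of -0.21, and none passed an adjusted p of 0.05. The lowest of them was *Jak2*, a kinase of that receptor, at -1.41 (adjusted p = 0.145). The 6 genes of the IL-4 pathway that is known to raise PD-L2 ranged from -0.48 for *Irf4* to 0.30 for the receptor chain *Il4ra*, with a median of -0.19.

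The 5 genes that act on the turnover of CD86 or PD-L1 at the cell surface differed from each other. *March1*, a ubiquitin ligase that removes CD86 and MHC class II from the surface, was at 32.7, 37.8 and 28.7 CPM in the Lyve-1- and 99.7, 57.0 and 78.4 CPM in the Lyve-1+ libraries. All Lyve-1+ values were higher, but the difference did not pass the test (log2 fold change 1.24, adjusted p = 0.268). *Cd83*, which opposes March1, was at -0.75 (adjusted p = 0.322). The proteins themselves were not measured here.

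Other ligands of the same families gave no call. Of 15 tested, 6 had a log2 fold change above 0 and 9 below, with a median of -0.29. The lowest was *Tnfsf14*, the ligand LIGHT, at -1.68 (adjusted p = 0.253), and the highest *Tnfsf13*, which encodes APRIL, at 2.63 (adjusted p = 1.00). *Tnfsf13* was near the detection limit, at 0 to 1.02 CPM in the Lyve-1- and 0.63 to 4.26 CPM in the Lyve-1+ libraries. The receptors of the 8 proteins and related receptors on T cells had 10 of 12 genes below 0 and a median of -0.99. They ranged from *Tnfrsf4*, the OX40L receptor OX40, at -3.17 to *Btla* at 1.65, with no adjusted p under 0.05. The value of *Btla* rested on Lyve-1+ replicate 3, at 80.6 CPM against 1.485 to 13.4 CPM in the other libraries. Among these receptors, with genes chosen after their values were seen, *Pdcd1*, the gene of PD-1, was at 0 to 6.71 CPM, and *Cd226* at 16.0 to 78.6 CPM.

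**Figure D5:**
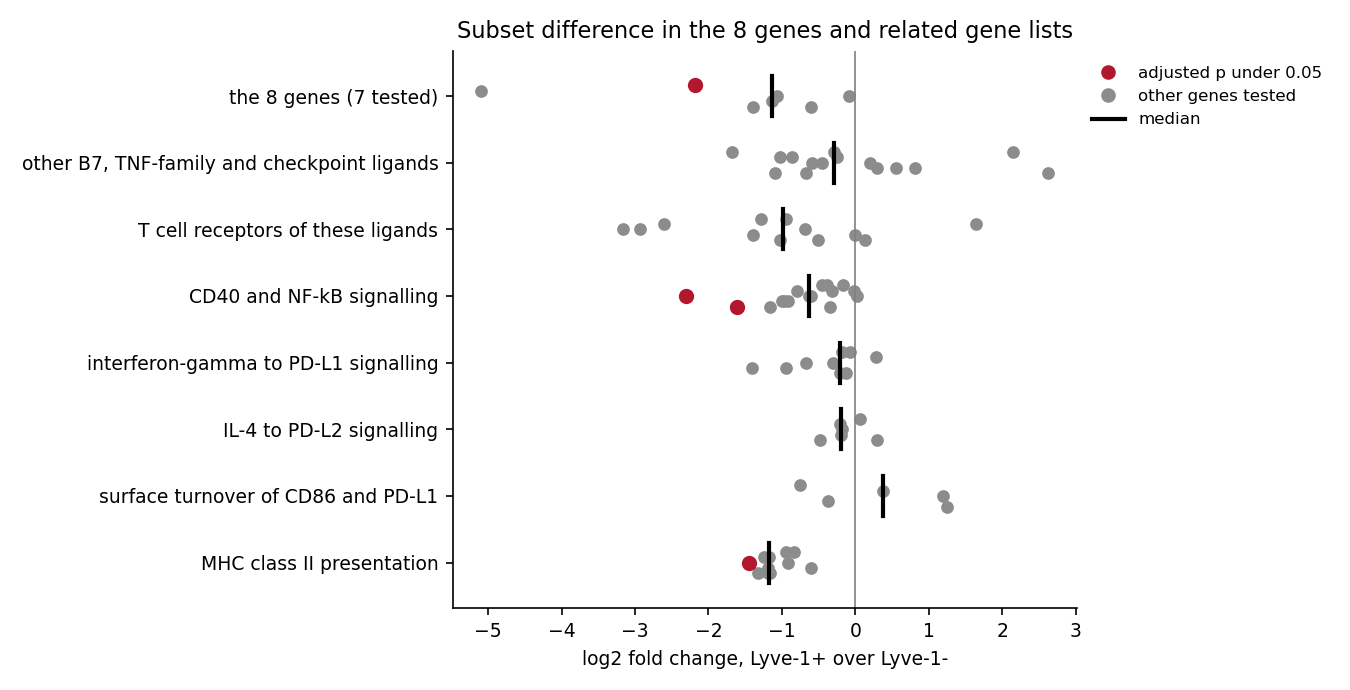
Log2 fold change of Lyve-1+ over Lyve-1- libraries for each gene tested among the 8 genes and in 7 related gene lists, with the median of each as a black bar and genes at an adjusted p under 0.05 in red. The medians of the 8 genes (-1.13) and of the MHC class II list (-1.17) lie furthest to the left, and the genes in red are *Icosl*, *Map3k14*, *Bcl2a1b* and *H2-Ab1*.

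Age was compared between the 4 libraries at 10 weeks and the 2 at 6 weeks, with the subset in the model. Since each subset had 1 library at 6 weeks, age and the pool cannot be told apart. No gene was called in edgeR's test, which is 0% of those tested, with 444 at an unadjusted p under 0.05 and 15 called by DESeq2. *Cd40* was higher at 10 weeks by 1.08 ± 0.36 on the log2 scale (edgeR, adjusted p = 1.00) and *Cd274* by 0.81 ± 0.34 (adjusted p = 1.00). These were the 2 genes of the 8 at an unadjusted p under 0.05 in this direction, against 2.05% of all genes, and neither held after adjustment. The mature dendritic cell markers *Fscn1* and *Ccr7*, chosen after their values were seen, were also higher at 10 weeks, by 2.26 (edgeR, adjusted p = 0.0354) and 2.12 (adjusted p = 0.055). The other 5 tested ranged from -0.29 for *Pdcd1lg2* to 0.81 for *Cd80*, and 6 of the 7 were above 0, as were 53.6% of all genes.

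The subset difference of the 8 genes was also read at each age. *Icosl* was 9.04-fold higher in the Lyve-1- than in the Lyve-1+ library at 6 weeks and 3.58-fold higher in the means at 10 weeks, and *Tnfsf9* was 3.88-fold and 1.61-fold higher. *Cd40* had the opposite order, with 1.62-fold at 6 weeks and 2.96-fold at 10 weeks. *Pdcd1lg2* did so as well, with 8 counts in the Lyve-1- and 12 in the Lyve-1+ library at 6 weeks but 384 and 55 against 6 and 0 at 10 weeks. However, edgeR's test of the interaction did not pass for any of the 7 genes (adjusted p 0.976 to 0.984), and none was below an unadjusted p of 0.05, against 4.59% of all genes. The interaction was 1.34 ± 0.88 for *Icosl*, -0.86 ± 0.68 for *Cd40* and -7.38 ± 3.80 for *Pdcd1lg2* on the log2 scale. With DESeq2 *Pdcd1lg2* was below an unadjusted p of 0.05 (-7.43, adjusted p = 0.341), and none of the 7 passed after adjustment.

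The patterns of the 8 genes over the 6 libraries were compared as Pearson's r of log2 CPM, given as a description since the libraries share their subset and depth. *Icosl* and *Tnfsf9* had the highest r among pairs of the 7 genes tested, at 0.917, followed by *Cd274* and *Cd40* at 0.892. *Cd80* and *Cd86* had the lowest, at -0.33. Among 8487 genes with a mean of at least 10 CPM, the patterns most like that of *Icosl* were those of *Dusp5*, a phosphatase of MAP kinases, and *Tbc1d1*, with r of 0.993 and 0.989. *Dusp5* was at 214.1, 179.4 and 159.9 CPM in the Lyve-1- and 45.0, 77.6 and 68.3 CPM in the Lyve-1+ libraries. It was picked for its likeness to *Icosl* over these libraries, so its lack of overlap follows from the choice. For *Cd40* the most alike were *Abr* and *Plxnc1*, for *Cd274* *Rpsa* and *Tmem176b*, and for *Tnfsf9* it was *Lilrb4*. For *Cd86* they were *Msl3* and *Acer3*, for *Cd80* *Cep162* and *Parp2*, and for *Pdcd1lg2* *Slc25a38* and *Cipc*, all with r between 0.963 and 0.994.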

How the data were processed

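RNA-seq was performed in 6 libraries of sorted mouse mammary gland macrophages. Per the labels and the methods, the authors made libraries with a SMARTer stranded total RNA Pico kit, aligned paired 50-bp reads to mm10 (GRCm38) with HISAT2 2.0.2 and counted them per gene with featureCounts 1.5.0 (Subread). The deposited values are raw counts per gene symbol, without normalization. The counting annotation and strand setting are not given in the sources used here, so reads of overlapping genes on opposite strands may not have been separated. The methods name the removal of a 6-week library as an outlier and of genes under 300 bp. However, 1278 genes with less exonic sequence than that were in the counts, and they were kept.

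Symbols were matched to GENCODE M21 (mm10) for positions and lengths, 22749 of 24061 directly and 941 through a RefSeq synonym. Low counts were filtered with filterByExpr by subset (edgeR 4.0.16 in R 4.3.3, with limma 3.58.1), which left 13348 genes. Counts were scaled by TMM, and CPM values are relative to the TMM-scaled total over the genes tested. Subsets were compared with edgeR's robust quasi-likelihood F test without covariates, and p-values were adjusted by Benjamini-Hochberg over all genes tested. A gene counted as called when its adjusted p was under 0.01 and its log2 fold change was more than 1 and less than 10 in size. The methods name DESeq2, and version 1.42.0 was an alternative. Age was tested in a model that also held the subset, and their interaction in a separate model. All intervals are at 95%. A count of 0 allows up to 3 counts, a limit for counting error only. P-values set a difference against the spread between pools of mice. In the comparison of subsets without covariates, that spread also holds the difference between ages.

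All 8 genes are named, with *Lyve1*. From each related list the genes named were those with an adjusted p under 0.05 and those with the highest and lowest log2 fold change among the genes tested. Any other is marked as picked once its values were known. A few genes that this rule names are not reported here. The genes and lists were chosen with earlier results of these data known. The alternatives were DESeq2, its size factors, total library size, age as a covariate, no filter, an adjusted p under 0.05, a block for the replicate number, a minimum of 10 counts per library, the libraries from 10 weeks by themselves, and each library left out in turn. A further alternative, chosen after the data were seen, used 4 libraries. The fit was tested on simulated data for the comparison of 3 libraries with 3 over 13348 genes, of which 200 were given a log2 fold change of 2. At the fitted dispersions edgeR recovered 23% with 0 false calls and DESeq2 40% with 18. At a dispersion of 0.1, each recovered 93.5%.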

Additional observations from a re-analysis of the deposited data

Results flagged for a closer look

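*Lyve1* itself, the gene of the sort marker, had a subset difference that differed between ages, with an interaction of -4.06 on the log2 scale (edgeR quasi-likelihood test, adjusted p = 0.0466). It was the only gene at an adjusted p under 0.05 in that test and did not pass 0.01, whereas DESeq2 called 15 genes for the interaction. It rests on 1 library of each subset at 6 weeks. In the Lyve-1- libraries *Lyve1* was at 1.43 CPM at 6 weeks and at a mean of 7.05 CPM at 10 weeks, and in the Lyve-1+ libraries at 2352 and 692.1 CPM.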

How the results depend on the processing

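The number of genes called between the subsets, 15 with edgeR's quasi-likelihood test, was 159 with DESeq2, 188 with no filter on low counts, 32 with at least 10 counts in every library, 58 with age as a covariate, 84 at an adjusted p under 0.05 and 0 in the 4 libraries with counts on the fewest olfactory receptor genes. Leaving out each library gave 1 to 81 genes, the lowest without Lyve-1- replicate 3. For age, the count of 0 became 15 with DESeq2, 12 with no filter and 3 at an adjusted p under 0.05, with 0 to 20 when libraries were left out. For the interaction, the count of 0 became 15 with DESeq2 and 1 at an adjusted p under 0.05, which was *Lyve1*. With the replicate number as a block, 140 genes were called. The correlations of same-numbered libraries' deviations were -0.046, -0.002 and -0.147, against -0.101 to 0.158 for the other pairs. This measure showed no pairing by number, but deviations from means of 3 libraries cannot exclude that mice were shared.

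Of the genes described, *Icosl* had the same direction in 15 of 15 alternatives (log2 fold change -2.58 to -1.85) and an adjusted p between 0.00032 and 0.435. It was called in 4 of them, which were DESeq2, no filter, the replicate block (-2.29) and the fit without Lyve-1+ replicate 2, and it also passed an adjusted p under 0.05. *Cd40* was called with no filter (adjusted p = 0.00855) and without Lyve-1- replicate 1 (adjusted p = 0.00901). *Cd274* and *Tnfsf9* kept their direction in all 15 alternatives and *Pdcd1lg2* in the 13 that gave a value, and none of these was called. The direction of *Cd80* was reversed in the 4 libraries (0.37) and without Lyve-1- replicate 3 (0.060), with a range of -0.98 to 0.060 when libraries were left out. That of *Cd86* was reversed in the 10-week libraries alone (0.070) and when either Lyve-1+ replicate 1 (0.099) or Lyve-1- replicate 2 was left out (0.23), with a range of -0.35 to 0.23. The cause was not tested. At the depth of these libraries *Pdcd1lg2* and *Tnfsf4* were near 3 counts in several of them, so a subset difference in *Tnfsf4* was not detectable. *Pdcd1lg2* gave no value with at least 10 counts in every library or in the 4 libraries.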
